A study of Homo sapiens with 6 samples.

Results

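The genes described here encode secreted ligands of the activin and bone morphogenetic protein (BMP) families, 6 in number, and 4 secreted antagonists. The ligands are INHBA, BMP2, BMP4, BMP6, BMP7 and the more distant relative GDF15. The antagonists are FST, FSTL3, GREM1 and NOG. They were chosen by name, as the rows of the deposited gene table whose Ensembl identifiers carry these symbols, and all 10 were found among its 58051 rows.

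Activins and BMPs are dimeric ligands that bring type I and type II serine/threonine kinase receptors together at the cell surface. Activin receptors phosphorylate SMAD2 and SMAD3, the transducers that TGF-beta itself uses, whereas BMP receptors phosphorylate SMAD1, SMAD5 and SMAD9 and raise genes such as ID1. Follistatin, gremlin and noggin bind ligands outside the cell and keep them from their receptors. In melanoma, activin A, BMP4 and BMP7 are among the family members known to be secreted by the tumour cells.

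The cells were A375, an established human melanoma line. They were starved for 2 h and then kept for a further 2 h with 10 ng/mL of recombinant human TGFB1 (the TGFB1 group, 3 libraries) or with its carrier, 4 mM HCl holding 1 mg/mL BSA (the Vehicle group, 3 libraries). The series' design text calls the triplicates technical, so each p-value measures the spread between these libraries and not that between independent experiments. RNA was ribodepleted before library preparation, per the labels' protocols, although the labels give the molecule as polyA RNA.

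Library totals ran from 24713894 to 34895075 counts. SMAD7, an inhibitor of TGF-beta receptor signalling that TGF-beta is known to raise, rose by 2.70 on the log2 scale, from 9.29 ± 1.74 to 61.1 ± 3.49 CPM (counts over the TMM-scaled size of the library's tested genes; SD, n = 3 each). Of 11 markers listed for melanoma lines, AXL stood at 225.6 ± 13.4 CPM in Vehicle, S100A4 at 234.1 ± 13.3 CPM and MITF at 62.7 ± 3.02 CPM (SD, n = 3 each). SOX10 was at 0 counts in every library, and 5 of the 11, SOX10 included, averaged under 1 CPM. Gene overlaps were not looked up for these markers and the counting mode is not given, so 0 counts need not mean absent RNA. MITF fell to 53.5 ± 2.01 CPM with TGFB1 (adjusted p = 0.0355, edgeR). Markers of other cell types, 11 in number, summed to between 219.6 and 229.8 CPM in Vehicle and between 214.6 and 229.2 CPM with TGFB1, and KRT18 supplied most of this (203.1 ± 4.18 CPM in Vehicle), with KRT8 next (15.02 ± 1.58 CPM). Of these 11, 4 were tested, 0 passed in edgeR, DESeq2 or limma-voom, and 0 had an unadjusted p under 0.05.

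FST, which encodes the activin antagonist follistatin, and the ligand gene BMP4 fell with TGFB1, and 0 of the 10 genes rose past the threshold. The promoters of these genes are printed here because they lie beside the changes measured. The windows are RefSeq's on GRCh38.p14, from 250 bases before a transcript start to 50 bases after it, read 5′ to 3′ on the gene's strand. Capitals mark matches on either strand. The SMAD motifs are CAGAC (the SMAD box), GTCTAGAC (a palindromic SMAD site) and GGCGCC (a GC-rich SMAD site). The others are TGANTCA (the AP-1 site loosened to any base at N), TGACGTCA (the cyclic AMP response element) and CACGTG (the E-box that BHLHE40 binds). No match to any of these motifs can lie wholly inside a match to another.
FST, chr5:53480379-53480678, plus strand: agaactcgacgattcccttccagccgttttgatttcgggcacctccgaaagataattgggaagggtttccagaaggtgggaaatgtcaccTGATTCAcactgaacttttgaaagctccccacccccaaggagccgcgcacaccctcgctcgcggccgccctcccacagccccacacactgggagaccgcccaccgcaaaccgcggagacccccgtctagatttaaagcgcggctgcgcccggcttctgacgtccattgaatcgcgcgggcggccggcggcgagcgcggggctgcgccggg
BMP4, start A, chr14:53955001-53955300, minus strand: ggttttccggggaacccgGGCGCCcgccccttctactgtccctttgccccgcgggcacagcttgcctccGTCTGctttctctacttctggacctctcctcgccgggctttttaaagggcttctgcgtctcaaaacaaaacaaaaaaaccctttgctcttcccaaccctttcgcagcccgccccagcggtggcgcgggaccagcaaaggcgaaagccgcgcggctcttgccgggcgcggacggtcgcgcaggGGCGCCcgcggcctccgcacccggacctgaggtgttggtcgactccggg
BMP4, start B, chr14:53954439-53954738, minus strand: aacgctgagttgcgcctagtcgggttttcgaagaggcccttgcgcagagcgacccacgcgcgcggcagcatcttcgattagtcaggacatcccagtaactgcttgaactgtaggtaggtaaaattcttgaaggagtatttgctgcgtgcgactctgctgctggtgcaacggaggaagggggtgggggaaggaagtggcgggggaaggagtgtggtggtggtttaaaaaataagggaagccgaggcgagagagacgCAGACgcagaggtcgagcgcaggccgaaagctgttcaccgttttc
BMP4, start C, chr14:53953346-53953645, minus strand: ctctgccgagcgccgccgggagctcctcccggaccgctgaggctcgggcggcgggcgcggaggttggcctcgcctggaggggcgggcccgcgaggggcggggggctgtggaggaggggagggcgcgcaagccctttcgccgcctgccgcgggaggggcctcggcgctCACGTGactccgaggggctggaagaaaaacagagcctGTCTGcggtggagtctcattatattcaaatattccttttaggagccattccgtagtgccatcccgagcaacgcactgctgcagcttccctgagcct

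In the FST window 1 motif was matched, TGANTCA, which begins 160 bases before the start. It reads TGATTCA there, without the G or C that the AP-1 consensus has in the middle. TGANTCA, with any middle base, is in 7.71% of the 35116 RefSeq windows of the same length. Each of the 3 BMP4 windows held 1 match to CAGAC, a motif found in 45.3% of all windows. The BMP4 window at start A also held GGCGCC at 2 places (19.2% of all windows hold it), and that at start C held CACGTG, beginning 83 bases before the start (7.26% of all windows). TGACGTCA and GTCTAGAC were matched in 0 of the 10 windows of these genes, against 1.85% and 0.202% of all windows. The table of windows matched 7 of the 10 genes, BMP2, BMP7 and NOG not being among them. A CAGAC match was present in at least 1 window of INHBA, BMP4, GREM1 and GDF15, and in 0 windows of FST, FSTL3 and BMP6. GGCGCC was matched at FSTL3, BMP4 and GREM1. A match describes these letters alone and is not evidence of binding, and the FST and BMP4 windows shared 0 of the 6 motifs.

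FST was the most abundant of the 10 genes. Per length, as RPKM (CPM divided by exon length in kilobases), it stood at 188.3 ± 3.03 in Vehicle (SD, n = 3), above 98.7% of 16624 tested genes with a known length. INHBA, which encodes the subunit of activin A, came next at 15.3 ± 0.329 RPKM, above 81.7% of those genes. FSTL3, a follistatin relative, was at 4.96 ± 0.770 RPKM, BMP2 at 1.86 ± 0.243 RPKM and GDF15 at 1.44 ± 0.0713 RPKM. Below these, BMP4 was at 0.934 ± 0.203 RPKM and BMP6 at 0.862 ± 0.0895 RPKM. The libraries of BMP4 (0.783 to 1.17 RPKM) and BMP6 (0.780 to 0.957 RPKM) overlapped, while every other pair of neighbours down to BMP7 was apart in Vehicle. NOG (0.377 ± 0.0684 RPKM) and BMP7 (0.212 ± 0.0111 RPKM) were low. GREM1, which encodes gremlin, was barely detected. With TGFB1 the order changed below GDF15: BMP6 (1.19 ± 0.0702 RPKM) and NOG (0.545 ± 0.0857 RPKM) both stood above BMP4 (0.414 ± 0.0747 RPKM), and the ranges of NOG and BMP4 did not overlap.

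**Figure D1:**
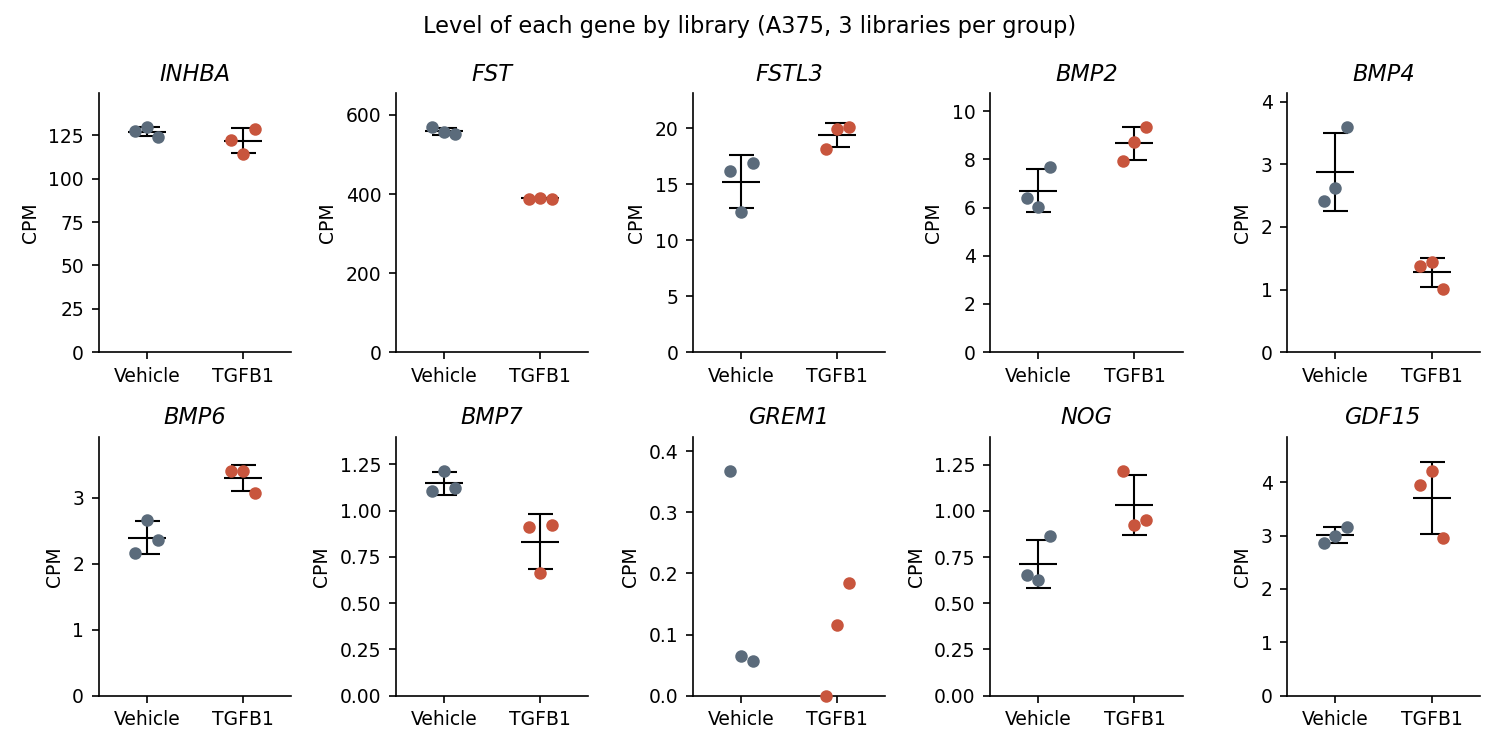
CPM of each gene (vertical axes, each starting at 0) in the 3 Vehicle and 3 TGFB1 libraries; points are libraries, horizontal bars the mean and error bars the SD (GREM1, at 0 to 9 counts a library, has points only). The TGFB1 libraries of FST and BMP4 lie below all Vehicle libraries, those of INHBA and GDF15 overlap them. Without passing the test, those of BMP7 also lie below and those of FSTL3, BMP2, BMP6 and NOG above.

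Of the 10 genes, 9 passed the filter on low counts and were tested. With edgeR's quasi-likelihood test and a Benjamini-Hochberg adjustment over all 16690 tested genes, 2 were lower with TGFB1 at an adjusted p below 0.05 and 0 were higher. Across all tested genes 0.887% were called lower, 2.43% higher and 3.31% in either direction. At an unadjusted p under 0.05, 2 were lower and 3 were higher (FSTL3, BMP2 and BMP6), against 4.87% and 7.41% of all tested genes, and DESeq2 and limma-voom each called 2 lower and 0 higher. Vehicle and TGFB1 libraries were wholly apart for 7 of the 9, against 16.4% of all tested genes. TGFB1 lay below in 3 of them (7.49% of all genes) and above in 4 (8.96% of all genes). The median log2 fold change of the 9 was 0.30, with a range from -1.18 to 0.52, and that of all tested genes was -0.0067. In these bulk libraries fewer cells that make an RNA and less of it per cell cannot be told apart.

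**Figure D2:**
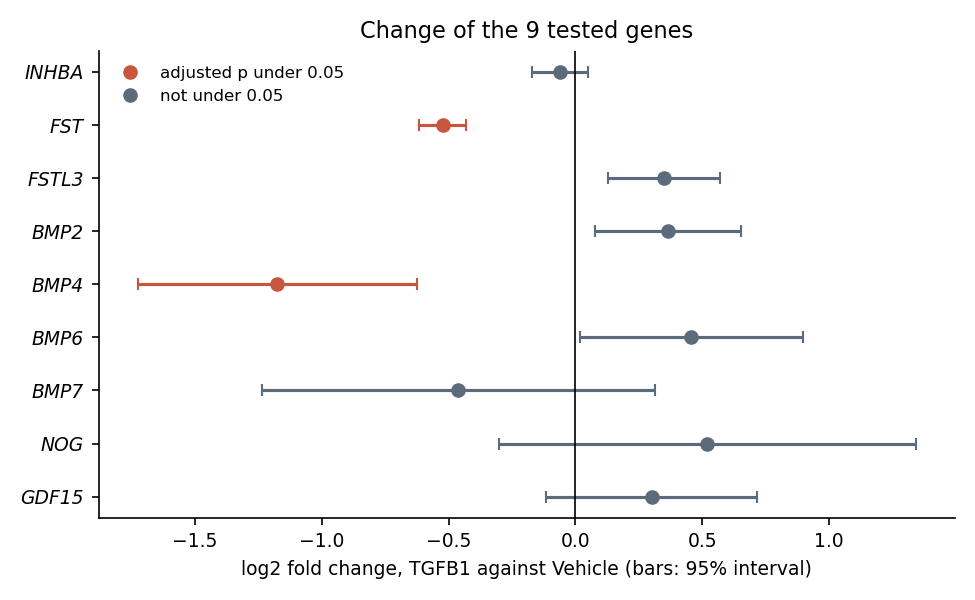
Log2 fold change of the 9 tested genes (horizontal axis), TGFB1 against Vehicle, with bars for the 95% interval of the edgeR fit, not adjusted for the number of genes. FST (-0.52) and BMP4 (-1.18) are the genes past the threshold; the FST interval is the narrowest of the 9 and those of BMP7 and NOG, the least abundant genes tested, are the widest.

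Among the antagonists, FST lies on chromosome 5 at 53480409 to 53487134 (GENCODE 29, GRCh38, plus strand) and has no exon in common with another gene. Its level was 568.9, 557.0 and 551.3 CPM in Vehicle replicates 1, 2 and 3 and 387.1, 390.4 and 388.6 CPM in TGFB1 replicates 1, 2 and 3. The groups were far apart, with a gap between them many times the spread inside either. The mean changed by -30.5%, from 559.1 ± 9.0 to 388.7 ± 1.66 CPM (SD, n = 3 each). The log2 fold change was -0.52 ± 0.045 (SE; 95% interval -0.62 to -0.43; adjusted p = 1.7e-10). Among the 148 genes called lower, FST ranked 3 by Vehicle level and 3 by CPM lost (170.3 CPM), but 53 by the size of its log2 fold change.

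FSTL3, whose protein also binds activin, lies on chromosome 19 at 676365 to 683399. It was at 16.2, 12.5 and 16.9 CPM in Vehicle replicates 1, 2 and 3 and at 18.1, 19.9 and 20.1 CPM in TGFB1 replicates 1, 2 and 3. Every TGFB1 library was above every Vehicle library, and Vehicle replicate 2 was the lowest. FSTL3 had a log2 fold change of 0.35 ± 0.11 (SE; 95% interval 0.13 to 0.57), with an adjusted p = 0.0749 in edgeR's test, so it was not called. It passed without Vehicle replicate 3 (adjusted p = 0.01) and with no low-count filter (adjusted p = 0.0278), and over the alternatives its adjusted p ran from 0.01 to 0.465, the highest being without Vehicle replicate 2. The FSTL3 to FST ratio per length was 0.0276, 0.0218 and 0.0297 in Vehicle replicates 1, 2 and 3 and 0.0453, 0.0494 and 0.05 in TGFB1 replicates 1, 2 and 3. It was 1.85-fold higher with TGFB1 and the groups did not overlap (two-sided exact permutation test, p = 0.1, the smallest that 3 libraries against 3 can give); this ratio was chosen after the values were seen.

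NOG encodes noggin, an antagonist with high affinity for BMP4 and BMP2, and lies on chromosome 17 at 56593699 to 56595590. It was at 0.655, 0.624 and 0.862 CPM in Vehicle replicates 1, 2 and 3 and at 1.22, 0.924 and 0.952 CPM in TGFB1 replicates 1, 2 and 3. The TGFB1 libraries were all higher, but the summed counts were 65 in Vehicle (95% Poisson interval 50.2 to 82.8) and 103 with TGFB1 (84.1 to 124.9), intervals that cover counting error only. NOG had a log2 fold change of 0.52, with a 95% interval from -0.30 to 1.34 (adjusted p = 0.681, edgeR). GREM1, whose gremlin protein binds BMP2 and BMP4, had 9, 2 and 2 counts in Vehicle replicates 1, 2 and 3 and 0, 4 and 6 counts in TGFB1 replicates 1, 2 and 3. It was not tested. Its 13 counts in Vehicle (95% Poisson interval 6.92 to 22.2) and 10 with TGFB1 (4.80 to 18.4), likewise unscaled, do not allow a difference to be seen at this depth. GREM1 lies on chromosome 15 at 32717974 to 32745107 and shares 188 of 14606 exonic bases (1.29%) with a long noncoding RNA gene on the other strand.

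Among the ligands, INHBA lies on chromosome 7 at 41667168 to 41705834 on the minus strand. Its level was 127.5, 129.6 and 124.2 CPM in Vehicle replicates 1, 2 and 3 and 122.4, 114.2 and 128.8 CPM in TGFB1 replicates 1, 2 and 3. The groups overlapped. The log2 fold change was -0.06 ± 0.055 (SE; adjusted p = 0.736, edgeR), with a 95% interval from 0.888-fold to 1.04-fold.

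The ratio of INHBA to FST, the ligand subunit over its antagonist per length, needs no scaling between libraries. It was 0.0802, 0.0832 and 0.0806 in Vehicle replicates 1, 2 and 3 and 0.113, 0.105 and 0.119 in TGFB1 replicates 1, 2 and 3. All TGFB1 libraries were above all Vehicle libraries. FST RNA exceeded INHBA RNA in every library, per length and by CPM. The size of the excess per length depends on the exon lengths used, 8302 bases for INHBA and 2969 for FST. The ratio was 1.38-fold higher with TGFB1 (log2 difference 0.46; two-sided exact permutation test, p = 0.1, the smallest this design allows). With the sum of FST and FSTL3 as the antagonist, an alternative added after the data were seen, it was 1.35-fold higher. As INHBA had a log2 fold change of -0.06 and FST of -0.52, the INHBA to FST ratio mostly restates the fall of FST.

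BMP4 lies on chromosome 14 at 53949736 to 53958761 on the minus strand and has no exon in common with another gene. It had 59, 80 and 125 counts in Vehicle replicates 1, 2 and 3 and 45, 50 and 33 counts in TGFB1 replicates 1, 2 and 3. Scaled, these were 2.41, 2.63 and 3.59 CPM in Vehicle and 1.37, 1.44 and 1.01 CPM with TGFB1. Vehicle replicate 3 was the highest library and TGFB1 replicate 3 the lowest, and the groups did not overlap. The mean changed by -55.7%, from 2.88 ± 0.627 to 1.28 ± 0.230 CPM (SD, n = 3 each). The log2 fold change was -1.18 ± 0.27 (SE; 95% interval -1.73 to -0.63; adjusted p = 0.00631). The call was lost without TGFB1 replicate 3 (log2 fold change -1.04, adjusted p = 0.0583), and the fall was smallest without Vehicle replicate 3 (-0.98, adjusted p = 0.0493). Among the 148 genes called lower BMP4 ranked 13 by size of log2 fold change and 141 by Vehicle level.

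BMP2, the closest relative of BMP4 among the ligands, lies on chromosome 20 at 6767664 to 6780280. It was at 6.38, 6.05 and 7.70 CPM in Vehicle replicates 1, 2 and 3 and at 7.95, 8.72 and 9.34 CPM in TGFB1 replicates 1, 2 and 3. The TGFB1 libraries were all above the Vehicle libraries, though TGFB1 replicate 1 and Vehicle replicate 3 nearly met. BMP2 had a log2 fold change of 0.37 ± 0.14 (SE; 95% interval 0.08 to 0.65), which did not pass the test (adjusted p = 0.216; 0.0565 to 0.588 over the alternatives). The BMP2 to BMP4 ratio per length was 2.26, 1.97 and 1.83 in Vehicle replicates 1, 2 and 3 and 4.96, 5.17 and 7.88 in TGFB1 replicates 1, 2 and 3. It was 2.91-fold higher with TGFB1, and the groups did not overlap (two-sided exact permutation test, p = 0.1, the smallest possible); it too was chosen after the values were seen.

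BMP6 and BMP7 belong to another branch of the BMP ligands than BMP2 and BMP4. BMP6, on chromosome 6 at 7726797 to 7881422, was at 2.17, 2.66 and 2.36 CPM in Vehicle replicates 1, 2 and 3 and at 3.41, 3.41 and 3.07 CPM in TGFB1 replicates 1, 2 and 3. The groups did not overlap, and the log2 fold change was 0.46 (95% interval 0.02 to 0.90; adjusted p = 0.373, edgeR). BMP7, on chromosome 20 at 57168748 to 57266629, was at 1.10, 1.22 and 1.12 CPM in Vehicle and 0.913, 0.664 and 0.921 CPM with TGFB1, replicates 1, 2 and 3 in turn. Its TGFB1 libraries were all lower, at 23 to 30 counts each, and its log2 fold change of -0.46 had a 95% interval from -1.24 to 0.31 (adjusted p = 0.707, edgeR). BMP4 and BMP7 thus had negative values and BMP2 and BMP6 positive ones, with BMP4 the single call among them.

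Of the summed RNA of BMP2, BMP4, BMP6 and BMP7, BMP4 made up a smaller part with TGFB1, a comparison chosen after the values were seen. The sum leaves out BMP8B, which alone stood at 4.68 ± 0.190 RPKM in Vehicle and 5.01 ± 0.208 RPKM with TGFB1 (SD, n = 3 each) and whose reads may be split with its close copy BMP8A. Over the 4 genes the level was 3.54, 3.71 and 4.36 RPKM in Vehicle replicates 1, 2 and 3 and 4.05, 4.24 and 4.20 RPKM in TGFB1 replicates 1, 2 and 3, and the groups overlapped (two-sided exact permutation test, p = 0.4). BMP4 supplied 22.1%, 23.0% and 26.7% of this sum in Vehicle replicates 1, 2 and 3 and 10.99%, 11.05% and 7.84% in TGFB1 replicates 1, 2 and 3. BMP2 supplied 48.1% ± 2.57 in Vehicle and 57.8% ± 3.67 with TGFB1, and BMP6 22.4% ± 3.18 and 28.5% ± 2.02 (SD, n = 3 each). BMP7 supplied 5.52% ± 0.682 and 3.70% ± 0.705. For each of the 4 genes the Vehicle and TGFB1 shares did not overlap, and each exact permutation test gave p = 0.1, the smallest possible. Shares of a sum are not independent of each other.

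**Figure D3:**
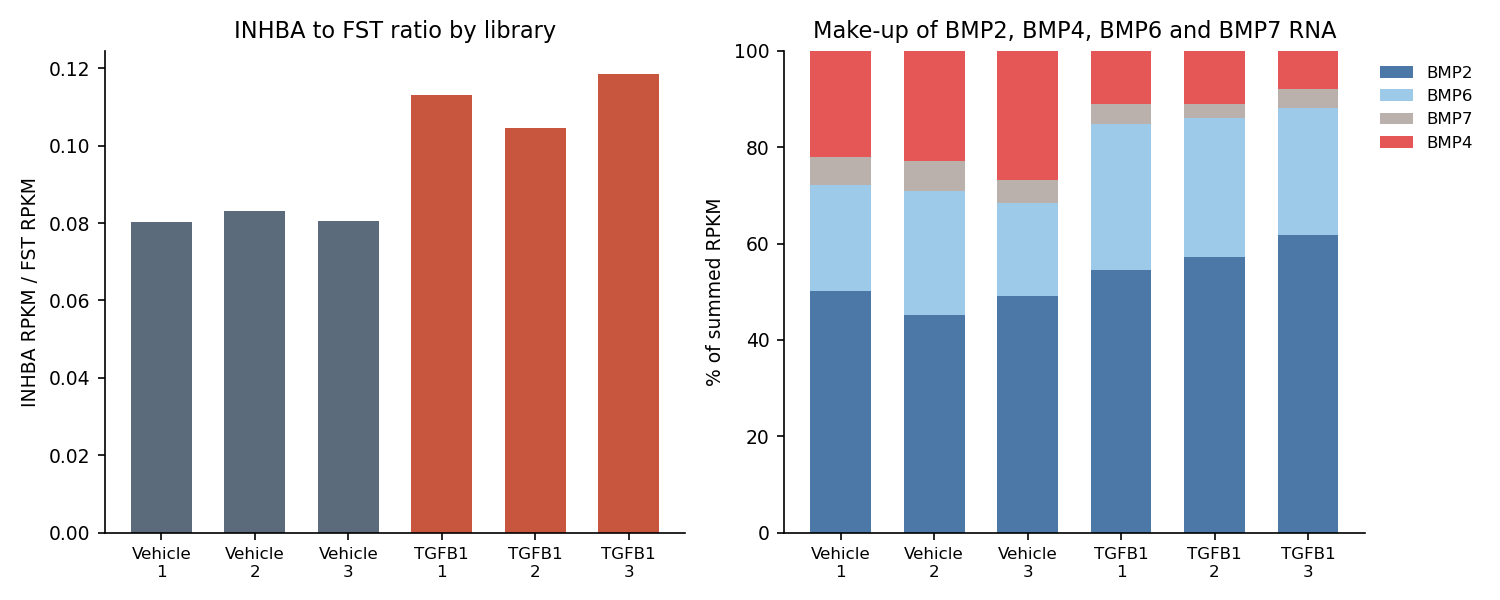
Left, the ratio of INHBA to FST RPKM in each library (bars from 0); right, the percentage of the summed RPKM of 4 BMP genes that each supplied, by library. The ratio is 0.0802 to 0.0832 in Vehicle and 0.105 to 0.119 with TGFB1, and the BMP4 band is 22.1% to 26.7% in Vehicle and 7.84% to 11.05% with TGFB1.

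GDF15, a stress-induced ligand that signals through GFRAL, lies on chromosome 19 at 18374731 to 18389176. It was at 2.86, 2.99 and 3.16 CPM in Vehicle replicates 1, 2 and 3 and at 3.96, 4.22 and 2.95 CPM in TGFB1 replicates 1, 2 and 3. TGFB1 replicate 3 lay inside the Vehicle range and the other two were above it. GDF15 had a log2 fold change of 0.30 (95% interval -0.11 to 0.72; adjusted p = 0.618, edgeR). GFRAL was at 0 counts in all 6 libraries. Of 11 stress and p53 pathway genes known to move with GDF15 elsewhere, 1 rose and 0 fell at an adjusted p below 0.05 (edgeR). Among all tested genes 2.43% were called higher and 0.887% lower. At an unadjusted p under 0.05, 1 was higher and 1 lower, against 7.41% and 4.87% of all tested genes. The lower one, named after its values were seen, was DDIT3 (log2 fold change -0.29, adjusted p = 0.102, edgeR), with every TGFB1 library below every Vehicle library. The riser was ATF3, a stress-response transcription factor, which went from 19.0 ± 1.97 to 48.1 ± 3.72 CPM. The median log2 fold change of the 11 was 0.09.

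The rest of the pathway was described by 5 lists of 92 genes, of which 53 were tested. With TGFB1, 9 were higher and 0 lower (edgeR). At an unadjusted p under 0.05, 16 were higher and 1 lower, against 7.41% and 4.87% of all tested genes. DESeq2 and limma-voom each called 9 higher and 0 lower. Among all tested genes edgeR called 2.43% higher and 0.887% lower. The median log2 fold change was 0.09 for the 53 and -0.0067 for all genes.

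Other ligands of the family mostly had low or 0 counts: 4 of 23 passed the filter on low counts. Of these, 0 were called by edgeR, DESeq2 or limma-voom (0 at an unadjusted p under 0.05). Gene overlaps were not looked up for these ligands, so low counts need not mean absent RNA. The most abundant were GDF11, with a Vehicle level of 26.02 ± 1.65 CPM and a TGFB1 level of 23.7 ± 0.826 CPM, and BMP8B, with 22.6 ± 0.917 and 24.2 ± 1.0 CPM (SD, n = 3 each). Of 27 other extracellular modulators 13 were tested and 0 were called by any of the 3 tools. At an unadjusted p under 0.05, 3 of these modulators were higher and 0 lower, against 7.41% and 4.87% of all tested genes. CRIM1, a transmembrane protein that tethers BMPs, was the most abundant, at 399.5 ± 20.1 and 393.5 ± 2.14 CPM. TWSG1, a partner of chordin, followed at 49.6 ± 1.05 and 55.4 ± 2.22 CPM (adjusted p = 0.247, edgeR).

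Of 20 receptor and SMAD genes listed for these ligands, 18 passed the filter on low counts and were tested, GFRAL and RET being left out. Some that passed were low, with ACVR1C at 5 to 16 counts a library and ACVRL1 at 7 to 14. RET, ACVR1C and ACVRL1 were named after their values were seen. The single call was SMAD3, the transducer that activin and TGF-beta share, which rose by 0.30 ± 0.077 (SE, log2 scale; adjusted p = 0.017, edgeR). For comparison with each list here, 2.43% of all tested genes were called higher and 0.887% lower, with a median log2 fold change of -0.0067. BMP target and feedback genes held most of the calls, 7 higher and 0 lower of 14 tested, with a median log2 fold change of 0.38. In order of p-value SMAD7 led them, followed by ID1 (log2 fold change 0.94, adjusted p = 2.53e-10, edgeR) and the ubiquitin ligase genes SMURF2 (0.47) and SMURF1 (0.34). The other risers, named after their values were seen, were BAMBI (0.31), ID2 (0.72) and ID3 (0.75). By log2 fold change ID3 and ID2 stood above both SMURF genes. ID4, also named after its values were seen, had a Vehicle level of 3.85 ± 0.451 CPM and a TGFB1 level of 2.40 ± 0.221 CPM (log2 fold change -0.68, adjusted p = 0.0726, edgeR), with every TGFB1 library lower. Several of these genes also respond to TGF-beta, so the list does not separate the branches. Among 4 proprotein convertase genes, whose products cleave ligand precursors to their active form, FURIN rose from 47.9 ± 3.53 to 70.0 ± 6.80 CPM (SD, n = 3 each; log2 fold change 0.55 ± 0.071 SE, adjusted p = 1.73e-06, edgeR), and PCSK5, PCSK6 and PCSK7 were not called.

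**Figure D4:**
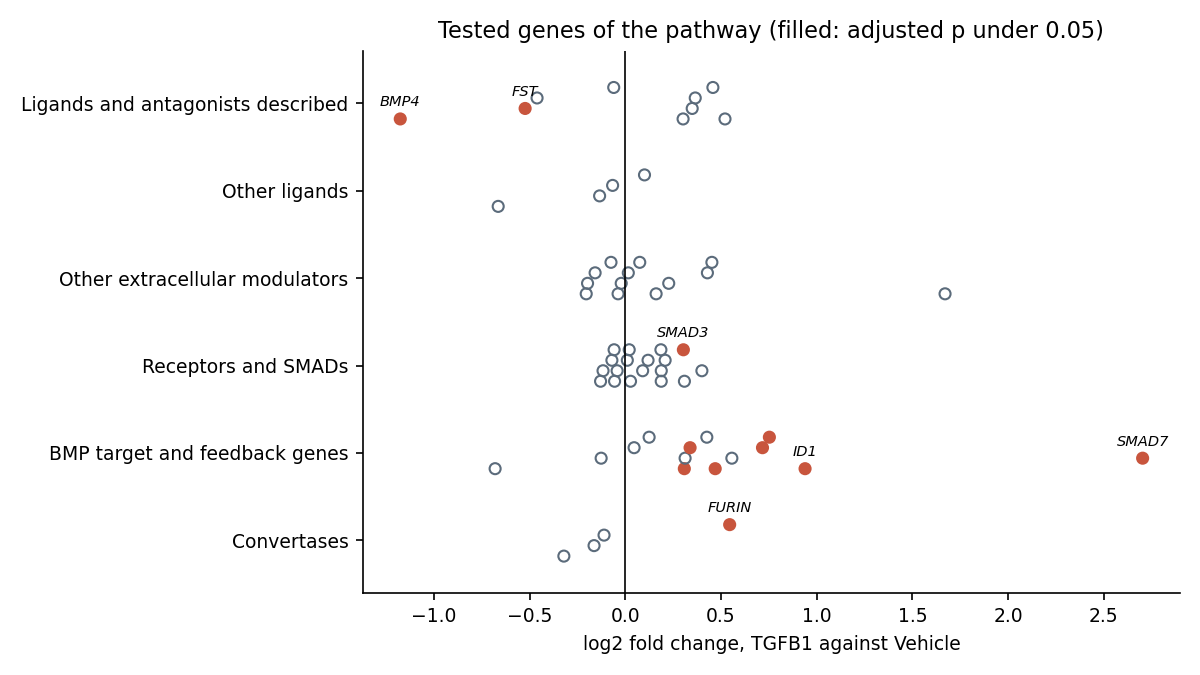
Log2 fold change, TGFB1 against Vehicle (horizontal axis), of each tested gene by list; each circle is a gene, filled where the adjusted p was under 0.05, and vertical offsets within a list carry no meaning. The lists are the 10 genes described and the 5 other pathway lists. The filled circles left of 0 are FST (-0.52) and BMP4 (-1.18), and those to the right include SMAD7 (2.70), ID1 (0.94), FURIN (0.55) and SMAD3 (0.30).

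The genes whose pattern over the 6 libraries was most like that of each called gene were found among those averaging at least 10 CPM, by the root mean square difference of log2 CPM centred on each gene's mean. For FST they were LRATD2 (0.0274) and DDIT4 (0.0316). LRATD2 went from 493.0 ± 22.2 to 338.7 ± 4.25 CPM and DDIT4, a stress-induced inhibitor of mTORC1, from 109.8 ± 3.82 to 78.2 ± 0.271 CPM (SD, n = 3 each). For BMP4 they were TXNIP (0.245) and RGS2 (0.278), at distances larger by far. BMP4 itself averaged 2.88 CPM in Vehicle and 1.28 CPM with TGFB1, so genes at its own level were not candidates. TXNIP, a thioredoxin-binding regulator of glucose uptake, went from 145.6 ± 10.5 to 81.3 ± 3.77 CPM and RGS2, a regulator of G-protein signalling, from 17.9 ± 0.858 to 10.5 ± 2.13 CPM. With 6 libraries in 2 groups this likeness rests mainly on the difference between the groups.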

How the data were processed

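The deposited file gives raw counts of reads per Ensembl gene in 6 libraries. Per the submitters' processing notes, the authors used cutadapt, TopHat2 2.1 and HTSeq with GRCh38; annotation release, counting mode and strandedness are not given here. Columns were matched to samples by library name.

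edgeR 4.0.16 (R 4.3.3) filtered the counts (filterByExpr, counts of 10, total of 15) and scaled them by TMM, and its robust quasi-likelihood test compared the groups with no other term. A log2 fold change divided by the root of F gives its SE. RPKM and gene positions use GENCODE 29, which need not be the release counted on. The test was tested on simulated data.

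The genes and 9 lists (135 symbols) were chosen with earlier results of these data known. Named are all 10 genes, up to 4 called genes of each other list by p (else the 2 most abundant), and the 2 genes most like each called gene; AXL, S100A4, SOX10, GFRAL, PCSK5, PCSK6 and PCSK7 fall outside this rule and were chosen after their values were seen. Alternatives were other scalings, filters and tools (DESeq2 1.42.0, limma 3.58.1), a replicate block and leaving out each library. The labels name no batch.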

Additional observations from a re-analysis of the deposited data

How the results depend on the processing

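FST kept its direction and its call under all 14 alternatives (log2 fold change -0.54 to -0.51, adjusted p from 1.89e-38 to 1.05e-07), and BMP4 under 13 of 14 (-1.28 to -0.98). None of the 9 tested genes changed direction under any alternative. With no low-count filter 1 of the 10 genes was called higher, FSTL3; the cause was not tested. Leaving out 1 library at a time gave 0 to 1 of the 10 higher and 1 to 2 lower, the exceptions being FSTL3 without Vehicle replicate 3 and BMP4 without TGFB1 replicate 3. Across all genes the same step gave 264 to 683 higher, against 405, and 97 to 240 lower, against 148; the extremes were 683 and 240 without Vehicle replicate 3, 264 higher without TGFB1 replicate 1 and 97 lower without TGFB1 replicate 3. The filter of at least 50 counts in 3 libraries left BMP7 and NOG untested. Replicate numbers are shared by the groups. They were left out of the main fit because the labels name no batch and the triplicates are called technical. Deviations of same-numbered libraries correlated at -0.030, 0.042 and 0.0076, and those of differently numbered libraries at -0.054 to 0.047. With a replicate block 448 genes were higher and 153 lower, 2 of the 10 genes were lower and 0 higher, 9 of the other pathway genes were higher and 0 lower, and the log2 INHBA to FST ratio difference was 0.46, equal to the unblocked value by construction; the log2 fold changes were -0.52 for FST and -1.16 for BMP4. Depth limits GREM1, NOG and BMP7, at 0 to 40 counts a library.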

Other observations

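Besides the long noncoding RNA gene that overlaps GREM1, GENCODE 29 places 3 noncoding genes within these loci. INHBA-AS1, on the strand opposite INHBA with no exonic base in common, had 12, 5 and 17 counts in Vehicle replicates 1, 2 and 3 and 14, 14 and 13 counts in TGFB1 replicates 1, 2 and 3 (log2 fold change 0.11, adjusted p = 0.975, edgeR quasi-likelihood test), and without a stated strand setting its reads cannot be told apart from those of INHBA introns. BMP7-AS1, opposite BMP7, and MIR3189, inside GDF15, were at 0 counts in all 6 libraries. These loci were looked up after the values of the coding genes were seen.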
